A study of Mus musculus with 2 samples.

Results

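The genes described here are 9 members of the S100 family, S100g, S100a6, S100a14, S100a11, S100a10, S100a8, S100a9, S100a4 and S100a1, taken by symbol from the 32285 genes counted in single cells of the mouse lung. They were not picked by a threshold on their values, and all 9 had counts in both libraries. The question was which member marks alveolar type 1 (AT1), alveolar type 2 (AT2), airway, myeloid and mesenchymal cells, and whether the pattern before birth was the one seen after it.

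There were 2 libraries with 1 per time point, postnatal day 10 (P10) and the late embryo (E18.5). Both came from mice labelled Cdh16CreERT2;tdTomatoflox/flox, in which a tamoxifen-activated recombinase driven by Cdh16, the gene of kidney-specific cadherin, switches on the red reporter tdTomato. The design text of the series gives a single flox allele instead. Pregnant females received tamoxifen from embryonic day 12.5 either injected at 0.1 mg for each kg of mouse or mixed into the diet at 0.4 g per kg of food. Which route served which library is not stated. Red cells were sorted within the population stained for CD326, the epithelial adhesion protein encoded by Epcam. The labels call the tissue of both libraries embryonic and give no number of animals, and lungs of embryonic day 16.5 were not analysed here.

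S100 proteins are small proteins with EF-hand motifs, loops that take up calcium ions. Calcium binding usually exposes a surface with which an S100 dimer grips a partner such as an annexin, a myosin or another enzyme, while a few members act as plain calcium buffers and some are secreted and bind receptors such as RAGE (Ager) and Tlr4. Most of the genes sit side by side, and in these data 8 of the 9 members lie on mouse chromosome 3 (GRCm38, the build also called mm10). In order along the chromosome these are S100a1 (90511034 to 90514392, minus strand), S100a14 (90526856 to 90528837, plus strand), S100a4 (90603771 to 90606045, plus strand), S100a6 (90612882 to 90624181, plus strand), S100a8 (90668978 to 90670035, plus strand), S100a9 (90692632 to 90695721, minus strand), S100a11 (93520488 to 93526287, plus strand) and S100a10 (93555080 to 93564643, plus strand). S100g lies apart from them on chromosome X (162961992 to 162964599, minus strand), inside the span of Ctps2 on the other strand. S100a4 overlaps the annotated gene Gm42674 on the same strand over 2115 bases, so their reads may not be separable.

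After filtering, 14086 cells were kept at P10 and 12027 at E18.5, with medians of 10250.5 and 8959 unique molecular identifiers (UMIs, counted molecules). Cells were clustered without any S100 gene and clusters were named "-like" from other markers. Levels are the UMIs of a gene summed over a class and normalised to all UMIs of that class (CPM, the usual scale of such data), with exact Poisson intervals at 95% in brackets. Such counts come from the 3′ ends of transcripts, so levels are compared between classes for 1 gene and not between genes. There is 1 library per time point, so no difference has a replicate check, no p-value is given, and every interval covers counting error only. A level was called higher or lower when 2 sums differed at least 2-fold, and beside each count of members stands the share of all genes with 10 CPM or more in either sum that passed the same rule.

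AT2-like cells numbered 9180 at P10 and 2447 at E18.5, and AT1-like cells 2118 at E18.5. At P10 no cluster was AT1-like. A cluster of 154 cells with markers of both alveolar types held the highest AT1 signal of that library, 5357 CPM summed over the 14 AT1 markers against 1228 CPM in AT2-like cells. Transcripts of alveolar cells were also counted in the other classes, and whether they came from free RNA in the droplets, from doublets or from the cells themselves was not tested. The 12 AT2 markers summed to 75621 CPM in airway-like, 88451 CPM in myeloid-like and 73260 CPM in mesenchymal-like cells of P10, against 187922 CPM in AT2-like cells. At E18.5 the same markers gave 27695, 28798 and 33300 CPM in these 3 classes and 9235 CPM in AT1-like cells, against 157009 CPM in AT2-like cells. Ager, an AT1 transcript of the lung, stood at 8746 CPM in AT1-like cells of E18.5 and still at 2243 CPM in endothelial-like and 2025 CPM in macrophage-like cells, against 1244 CPM in AT2-like cells. The 2 libraries shared 59 barcodes, 52 of them among the kept cells.

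**Figure D1:**
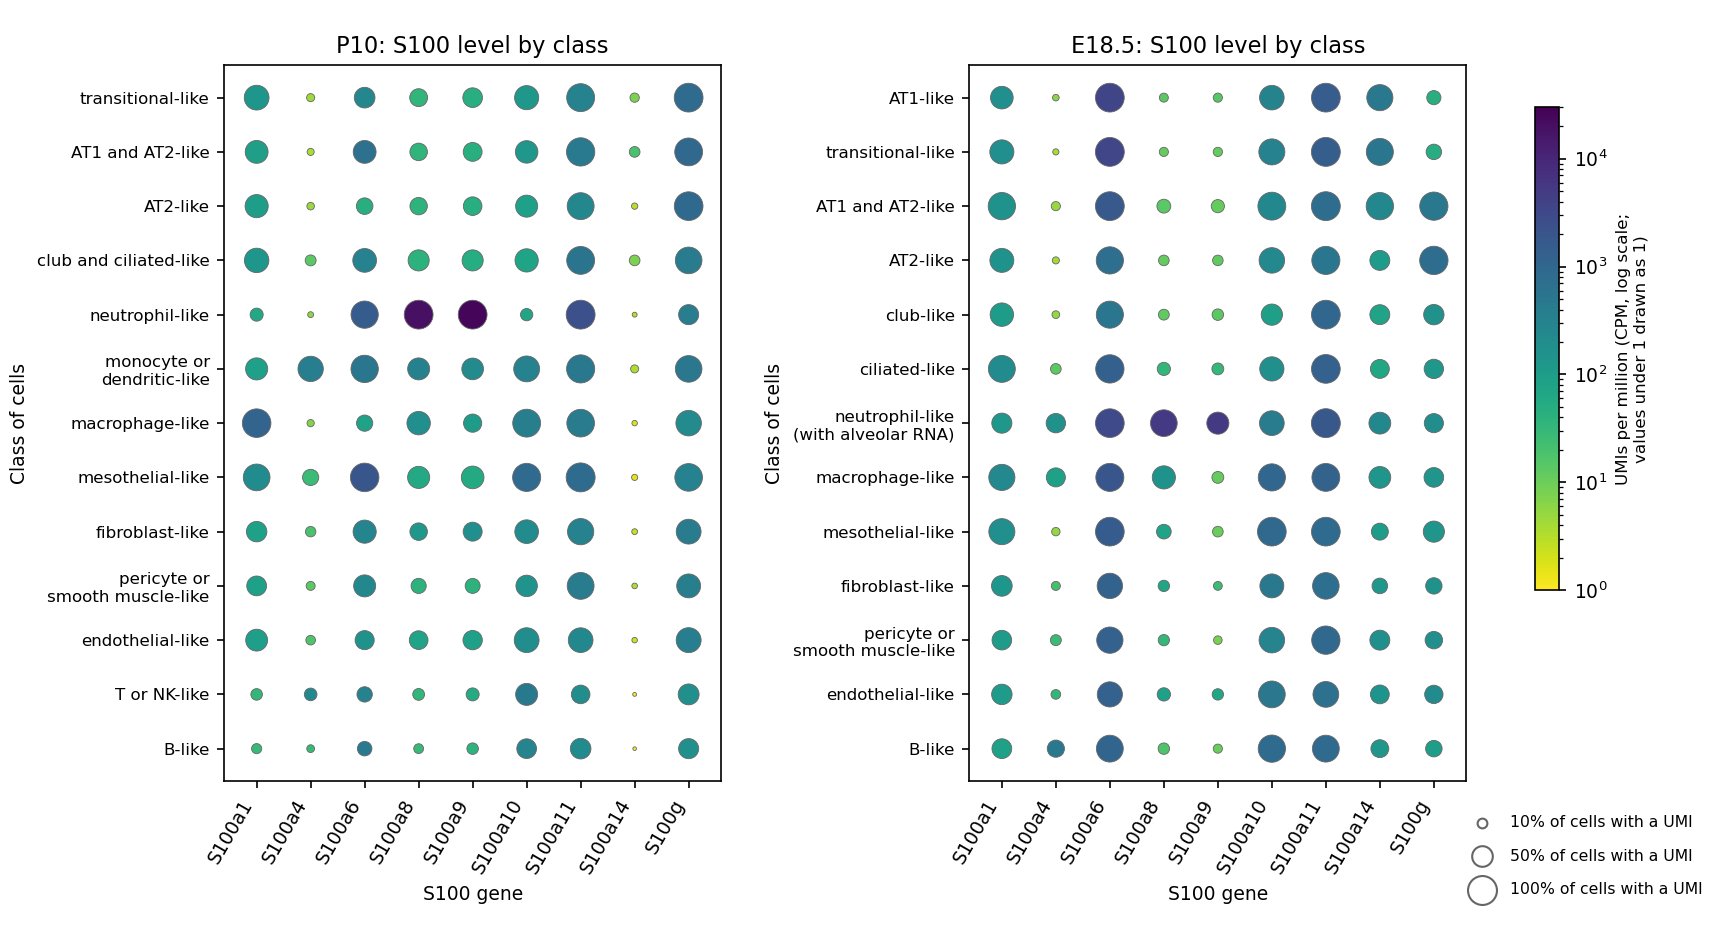
Level (colour, CPM on a log scale) and share of cells with at least 1 UMI (dot size) of the 9 members in each named class, P10 on the left and E18.5 on the right. S100a8 and S100a9 peaked in neutrophil-like cells of both libraries, S100g filled the alveolar rows of P10, and S100a14 was dark in AT1-like and transitional-like cells of E18.5 and pale throughout P10.

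S100g marked AT2-like cells. It encodes calbindin-D9k, a small cytosolic calcium buffer best known from the gut. At P10 its level was 929 CPM (923 to 935) in AT2-like cells, 974 CPM (931 to 1020) in the cluster with both alveolar programs and 859 CPM (848 to 871) in transitional-like cells, alveolar cells led by Areg and Sfn. The transitional-like clusters were unlike between the libraries, with AT2 markers summing to 164371 CPM and AT1 markers to 1653 CPM at P10, and 13164 and 16135 CPM at E18.5, so they are not compared across age. That of E18.5 was led by Ccn2, Krtap17-1 and Hbegf. At E18.5 S100g was at 782 CPM (772 to 793) in AT2-like cells, 485 CPM (479 to 493) where both programs were present, 49.1 CPM in transitional-like cells and 44.7 CPM (41.2 to 48.4) in AT1-like cells. AT1-like cells of E18.5 were thus 17.5-fold below AT2-like cells (interval 16.1 to 19.0). An S100g UMI was found in 98.1% of AT2-like cells at P10 and 95.9% at E18.5, or in 87.6% and 81.5% after each cell was thinned to 3000 UMIs.

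The S100g counts elsewhere ran with those of Sftpc, the gene of surfactant protein C. At P10 there were 6.22 S100g UMIs per 1000 Sftpc UMIs in AT2-like cells, and in the other named classes that entered the sums between 6.09 (pericyte or smooth muscle-like) and 9.0 (B-like). At E18.5 there were 5.87 per 1000 in AT2-like cells, 6.27 in AT1-like, 5.86 in macrophage-like, 6.15 in fibroblast-like and 5.64 in endothelial-like cells, with B-like cells (2.60, on 29 UMIs), transitional-like cells (4.54) and club-like cells (7.29) farthest away. S100g was at 424 CPM in airway-like cells of P10, with 7.36 UMIs per 1000 Sftpc UMIs (6.99 to 7.74), and at 408 CPM in fibroblast-like cells, with 6.80 (6.46 to 7.16), both somewhat above the 6.22 of AT2-like cells (6.18 to 6.26). The source of these counts was not tested. Over 23 class profiles of both libraries the genes whose pattern was most like that of S100g were Lamp3 (Pearson r 0.988), Sftpc (0.984) and Slc34a2 (0.982), 3 AT2 markers.

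The 250 bases before the RefSeq start of S100g (GRCm38.p6, chrX:162964600-162964849, minus strand) are shown because S100g was the member that followed the surfactant genes, and because they differ in base content from those of its relatives. Capitals mark matches to TTNNGNAA, a short consensus of the C/EBP factors, on either strand.
S100g: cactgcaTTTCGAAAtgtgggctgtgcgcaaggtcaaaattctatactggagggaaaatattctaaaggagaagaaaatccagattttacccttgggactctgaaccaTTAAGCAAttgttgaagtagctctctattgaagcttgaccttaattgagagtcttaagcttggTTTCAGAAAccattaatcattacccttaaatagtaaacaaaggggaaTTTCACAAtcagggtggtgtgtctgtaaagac
This stretch held 6 matches, starting 243 (on both strands), 142, 79, 78 and 32 bases before the start, the pair at 79 and 78 overlapping. It was 38.4% G or C, while the stretches of the other 6 members with an entry in the RefSeq table lay between 50% and 61.6%. The motif is common: 36.8% of the 32851 stretches of this length in the table held at least 1 match. A match is a description of the letters only.

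S100a6, S100a14 and S100a11 were higher on the AT1 side of the alveolus. S100a6, or calcyclin, binds annexins and the calcyclin-binding protein. At P10 it stood at 673 CPM (636 to 711) in the cluster with both programs and 255 CPM in transitional-like cells, against 44.5 CPM (43.3 to 45.8) in AT2-like cells, ratios of 15.1 and 5.72. At E18.5 its level was 3687 CPM (3654 to 3719) in AT1-like cells, 3509 CPM in transitional-like cells and 1750 CPM in cells with both programs, against 758 CPM (748 to 769) in AT2-like cells, an AT1 over AT2 ratio of 4.86 (4.78 to 4.94). AT2-like cells were thus the lowest alveolar class in both libraries, and the AT2-like cells and the cells with both programs each had less S100a6 at P10. The AT2-like sum of E18.5 includes a cluster led by antioxidant genes at 2108 CPM, and its other clusters lay at 462 and 448 CPM. Over alternative settings the AT1 over AT2 log2 ratio of E18.5 ran between 1.78 and 3.02, against 2.28 as reported.

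S100a14, an epithelial member that binds RAGE, was at 19.5 CPM (13.7 to 26.9, on 37 UMIs) in the P10 cluster with both programs and at 7.54 CPM in transitional-like cells of P10, against 2.98 CPM (2.67 to 3.32) in AT2-like cells. At E18.5 it gave 491 CPM (479 to 503) in AT1-like and 517 CPM (501 to 533) in transitional-like cells, whose intervals overlap, and 245 CPM in cells with both programs, against 111 CPM (107 to 115) in AT2-like cells. The myeloid, mesenchymal, endothelial and B-like classes held 107 to 176 CPM at E18.5, close to or above the summed level of AT2-like cells. That sum includes the cluster led by antioxidant genes, at 279 CPM. The other AT2-like clusters, at 71.9 and 73.2 CPM, lay below those classes. S100a14 was seen in 0 of 275 B-like cells of P10, and 3 counts in that sum would be 2.75 CPM.

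S100a11, which binds annexin A1, was more evenly spread. At P10 it was 446 CPM (416 to 477) in the cluster with both programs and 317 CPM in transitional-like cells, against 251 CPM (248 to 254) in AT2-like cells, a ratio of 1.77 for the first, which is short of 2-fold. At E18.5 it gave 1518 CPM (1497 to 1539) in AT1-like, 1441 CPM in transitional-like and 785 CPM in cells with both programs, against 527 CPM (519 to 536) in AT2-like cells.

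S100a10, or p11, is the member that no longer binds calcium and pairs with annexin A2 at the membrane. It differed little between the alveolar types, with 123 CPM (108 to 140) at P10 where both programs were present against 90.8 CPM (89.0 to 92.6) in AT2-like cells. At E18.5 it gave 304 CPM (295 to 314) in AT1-like against 238 CPM (232 to 244) in AT2-like cells. Compared with AT2-like cells, the P10 cluster with both programs was at least 2-fold higher in 2 of the 9 members, S100a6 and S100a14, where 3.62% of tested genes were, and lower in 0, where 0.381% were. At E18.5 AT1-like cells were higher in 3 members (S100a6, S100a11 and S100a14, against 17.3% of tested genes) and lower in S100g (9.63%).

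**Figure D2:**
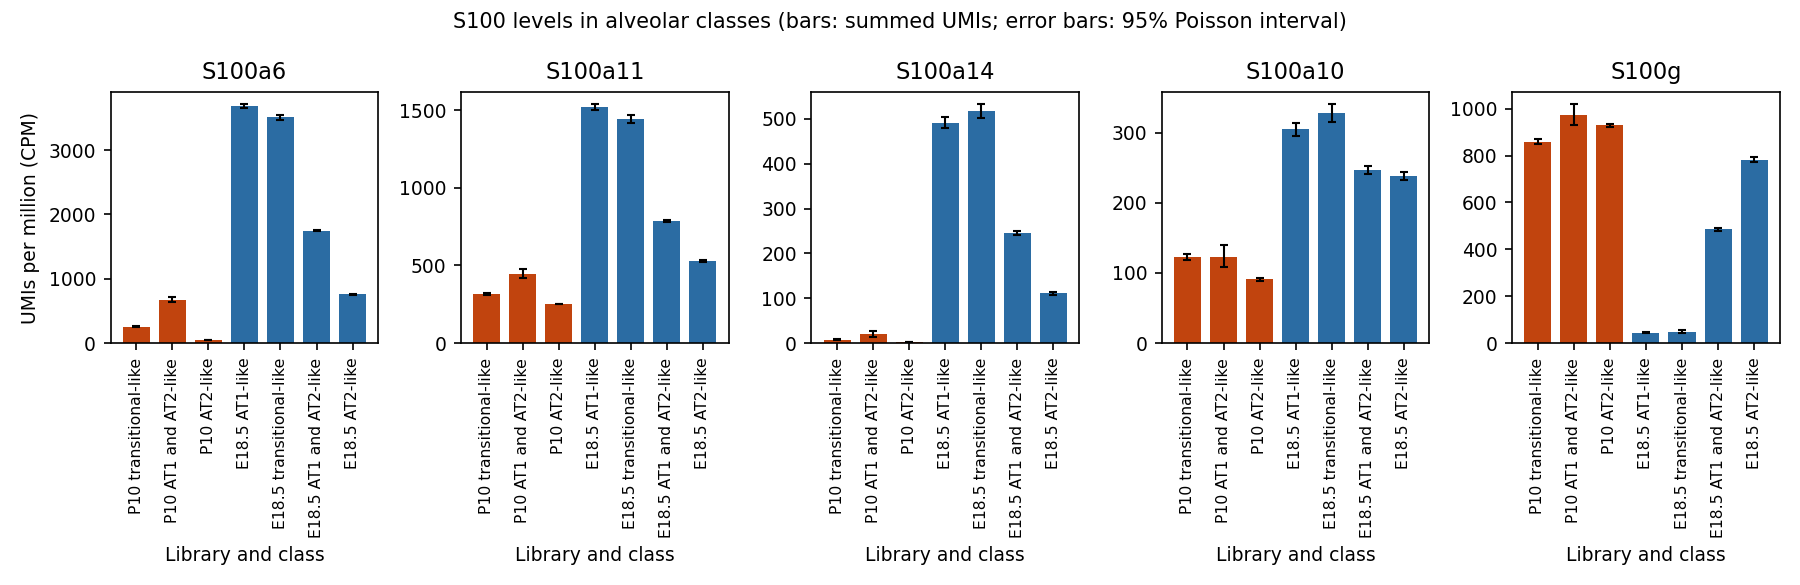
Level in CPM of 5 members in the alveolar classes, P10 in orange and E18.5 in blue, with 95% Poisson intervals. S100a6, S100a11 and S100a14 stepped down from AT1-like to AT2-like cells of E18.5 and were low in AT2-like cells of P10 (44.5, 251 and 2.98 CPM), while S100g was high in all 3 alveolar classes of P10.

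The AT2-like cells were not all alike in these genes. Over the 6 AT2-like clusters of P10, S100a6 lay between 33.3 and 58.0 CPM, S100a11 between 203 and 371 CPM and S100g between 682 and 1090 CPM. At E18.5 the AT2-like cluster of 265 cells led by the antioxidant genes Cbr3, Srxn1 and Gclm had 2108 CPM of S100a6 and 279 CPM of S100a14, against 448 CPM of S100a6 and 71.9 CPM of S100a14 in the lowest AT2-like clusters of that library. S100a11 ranged between 427 and 891 CPM over the 3 AT2-like clusters of E18.5, the antioxidant cluster again on top. S100g ran the other way, between 582 and 833 CPM with the antioxidant cluster lowest. The cells of E18.5 with both programs were deep, with a median of 16465 UMIs against 5175 UMIs in AT1-like and 9445 UMIs in AT2-like cells. Doublets were not removed, and how many of these cells are doublets was not tested.

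Airway-like cells, the secretory club and the ciliated cells of the conducting tubes, had more S100a11 than AT2-like cells but not the highest level of either library. At P10 a single cluster of 147 cells held both kinds, with 574 CPM of S100a11 (550 to 600) against 251 CPM in AT2-like cells. At E18.5 the level was 1250 CPM (1223 to 1277) in ciliated-like and 1010 CPM (974 to 1047) in club-like cells, against 527 CPM in AT2-like cells, 2.23-fold (2.17 to 2.28) for both kinds of airway cell together. Above them stood neutrophil-like (2386 CPM) and mesothelial-like cells (864 CPM) at P10, and AT1-like (1518 CPM) and transitional-like cells (1441 CPM) at E18.5, where the interval of macrophage-like cells (1222 CPM, 1194 to 1252) overlapped that of ciliated-like cells.

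S100a6 separated the 2 kinds of airway cell where they could be told apart. In the mixed airway-like cluster of P10 it was 310 CPM (292 to 329), 6.97-fold above AT2-like cells. At E18.5 it was 1344 CPM (1316 to 1373) in ciliated-like cells and 534 CPM (508 to 562) in club-like cells, with the AT2-like sum between them at 758 CPM. That sum includes the antioxidant-led cluster at 2108 CPM. The other AT2-like clusters, at 462 and 448 CPM, lay below club-like cells. Ciliated-like cells had 1.42 S100a6 UMIs per Ager UMI and club-like cells 0.448, close to the 0.421 of AT1-like cells. S100a10 was at 72.2 CPM (63.7 to 81.5) in airway-like cells of P10, and at E18.5 at 177 CPM (167 to 187) in ciliated-like and 92.9 CPM (82.2 to 105) in club-like cells, all below the AT2-like level of the same library.

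At P10 4 members were higher in airway-like than in AT2-like cells (S100a4, S100a6, S100a11 and S100a14, the last under 10 CPM in both), where 13% of tested genes were, and S100g was lower, where 3.35% were. At E18.5 4 were higher (S100a4, S100a8, S100a9 and S100a11, against 20.8%) and S100g was lower (4.72%). The S100a8 count of ciliated-like cells was uneven, since 5 of 450 cells held 49.1% of its 216 UMIs. Of these members S100a6 and S100a11 at P10 and S100a11 at E18.5 exceeded 100 CPM. The E18.5 count was 1 (S100a11) without the cells of highest doublet score and 1 (S100a4) when S100 genes were among the variable genes.

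S100a8 and S100a9 marked neutrophil-like cells in both libraries. They encode the 2 chains of calprotectin, which neutrophils hold in large amounts and which withholds zinc and manganese from microbes and signals through Tlr4 and RAGE. In the 303 neutrophil-like cells of P10 S100a8 reached 19564 CPM (19331 to 19798) and S100a9 26281 CPM (26011 to 26553), and 299 of these cells had a UMI of both. Their median depth was 2598 UMIs. At E18.5 the neutrophil-like cluster of 217 cells carried alveolar RNA, which keeps it out of the summed myeloid class, and had 5290 CPM of S100a8 and 5438 CPM of S100a9. In it 120 cells had a UMI of both and 64 (29.5%) of S100a8 alone. Its neutrophil markers summed to 2856 CPM and its monocyte or dendritic markers to 2593 CPM, against 17576 and 226 CPM in neutrophil-like cells of P10, and 44.2% of its cells had an S100a4 UMI, so its markers were mixed.

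In AT2-like cells S100a8 was at 38.0 CPM (36.8 to 39.1) at P10 and 12.1 CPM at E18.5, and S100a9 at 47.2 CPM (46.0 to 48.6) at P10 and 12.3 CPM at E18.5. The share of AT2-like cells with an S100a8 UMI was 35.2% at P10 and 12.2% at E18.5, or 11.2% and 4.22% after thinning. Between the 2 genes there were 0.803 S100a8 UMIs per S100a9 UMI (0.771 to 0.837) in AT2-like cells of P10 and 0.744 (0.733 to 0.756) in neutrophil-like cells, and 0.988 (0.846 to 1.15) and 0.973 (0.949 to 0.997) at E18.5. Retnlg, a neutrophil gene, stood beside them in AT2-like cells at 16.6 CPM at P10 and 3.55 CPM at E18.5. At P10 the ratio of AT2-like cells lay just above that of neutrophil-like cells, with intervals that did not overlap. Whether AT2-like cells transcribe either gene was not tested.

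The stretches before the RefSeq starts of S100a8 (chr3:90668821-90669070, plus strand) and S100a9 (chr3:90695722-90695971, minus strand), both on GRCm38.p6, are shown because the pair moved together over classes, with a Pearson r of 0.92 over the 23 profiles. The S100a8 stretch runs past 90668978, where the gene span given above begins, so its last bases lie inside that span. Capitals again mark TTNNGNAA on either strand.
S100a8: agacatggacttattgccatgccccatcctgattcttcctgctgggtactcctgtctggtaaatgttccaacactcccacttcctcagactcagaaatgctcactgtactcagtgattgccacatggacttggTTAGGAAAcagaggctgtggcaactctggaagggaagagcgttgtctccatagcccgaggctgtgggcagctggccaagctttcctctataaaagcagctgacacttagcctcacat
S100a9: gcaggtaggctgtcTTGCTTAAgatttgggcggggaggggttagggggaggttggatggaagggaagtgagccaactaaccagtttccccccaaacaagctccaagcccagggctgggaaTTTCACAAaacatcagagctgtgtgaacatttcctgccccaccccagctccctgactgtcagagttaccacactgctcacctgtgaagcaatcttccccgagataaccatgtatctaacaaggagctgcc
The S100a8 stretch held 1 match, 117 bases before the start, and the S100a9 stretch 2, at 236 and 130 bases. S100a8 also had 1 match to GAGGAAG, a core of PU.1 sites, at 171 bases (10.6% of all stretches hold 1 on either strand) and a TATAAA at 30 bases. A TATAAA was held by 12.4% of all stretches on either strand, and by 2.63% in the last 50 bases on the gene strand. Of the other members with an entry, S100a4 had a TATAAA at 31 bases and S100a11 had 2 matches to TGANTCA, the AP-1 consensus, at 136 and 38 bases (6.75% of all stretches hold 1). S100a1, S100a4, S100a6 and S100a11 held no TTNNGNAA.

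Some macrophage-like and monocyte-like clusters held more S100a8 than S100a9 UMIs. At P10 there were 1.76 S100a8 UMIs per S100a9 UMI (1.45 to 2.14) in macrophage-like cells led by Chil3 and Marco and 1.62 (1.51 to 1.74) in the monocyte-like cluster led by Plac8, both above the 0.744 of neutrophil-like cells. In the Plac8 cluster 5 cells held 43.2% of the S100a8 UMIs. The other clusters of these kinds at P10 did not share the excess, with 0.910 (0.795 to 1.04) in the C1qa-led macrophage-like cluster and 0.829 (0.693 to 0.992) in the other monocyte or dendritic-like one. S100a8 was at 181 CPM (161 to 202) in those macrophages at P10, close to the 154 CPM of E18.5, and S100a9 at 103 CPM (87.8 to 119), against 11.3 CPM at E18.5. At P10 5 of the 145 macrophage-like cells held 38.1% of the S100a8 UMIs of the cluster.

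Macrophage-like cells of E18.5 carried S100a8 with little S100a9. Over 361 cells S100a8 was at 154 CPM (144 to 165), against 12.1 CPM in AT2-like cells, while S100a9 was at 11.3 CPM (8.66 to 14.4) against 12.3 CPM. That is 13.7 S100a8 UMIs per S100a9 UMI (10.6 to 18.0), against 0.973 in the neutrophil-like cluster of the same library. In the main cluster of these macrophages, led by Wfdc17, Car4 and Fabp4, 138 of 208 cells (66.3%) had S100a8 UMIs alone and 27 had both. A larger macrophage-like cluster of 706 cells that carried alveolar RNA gave 444 cells (62.9%) with S100a8 alone and 79 with both. The cluster of dividing macrophage-like cells gave 24.9 S100a8 UMIs per S100a9 UMI (12.9 to 55.1), and the cluster led by C1qa gave 2.20 (1.16 to 4.36).

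**Figure D3:**
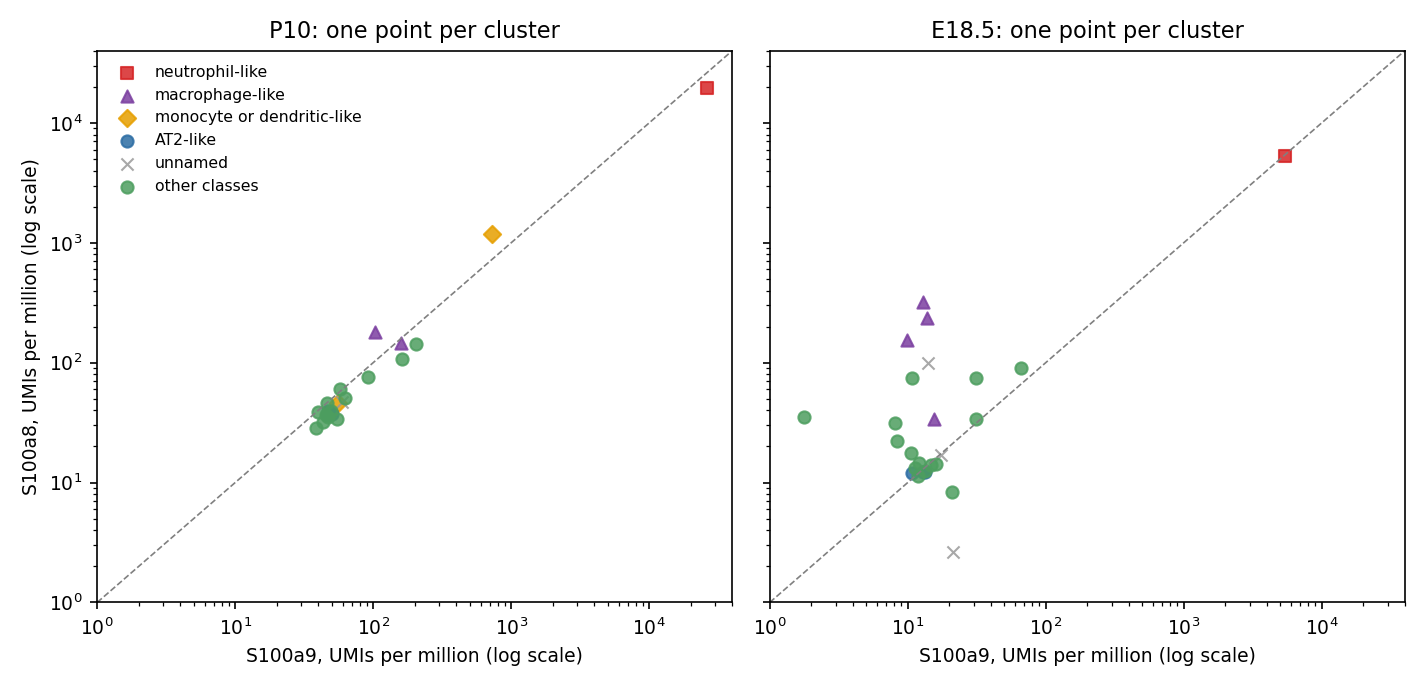
Level of S100a8 against S100a9 in CPM, both on log scales, with 1 point per cluster, P10 on the left and E18.5 on the right, and a dashed line where both are equal. Neutrophil-like clusters sat near the line in both panels, and 3 macrophage-like clusters of E18.5 stood far above it with ratios of 15.5, 17.1 and 24.9.

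S100a1 marked the Chil3 and Marco macrophages of P10. Its protein is best known from heart muscle, where it acts on calcium release and on the calcium pump Atp2a2. The level in these 145 cells was 1128 CPM (1077 to 1180), against 98.6 CPM (96.8 to 101) in AT2-like cells, a ratio of 11.4. An S100a1 UMI was found in 97.2% of them, and 134 cells (92.4%) had 3 or more. The next class, 33 mesothelial-like cells, lay at 212 CPM (178 to 251), followed by airway-like cells at 134 CPM (122 to 146) and transitional-like cells at 132 CPM, whose intervals overlap.

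At E18.5 S100a1 was flat by comparison, with 231 CPM (219 to 244) in macrophage-like, 218 CPM (207 to 230) in ciliated-like, 186 CPM in AT1-like and 162 CPM (157 to 167) in AT2-like cells, and the intervals of the first 2 overlapped. Macrophage-like cells of P10 were 4.88-fold (4.54 to 5.24) above those of E18.5, while AT2-like cells were 1.64-fold lower at P10. A C1qa-led macrophage-like cluster of P10, which carried alveolar RNA, had 97.5 CPM, the AT2-like level, so the high level belonged to 1 of the 2 macrophage-like clusters. The macrophages compared across age are thus not the same mixture of clusters. The genes most like S100a1 over the 23 profiles were Akr1a1, Hebp1 and Gmpr (r between 0.867 and 0.882).

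S100a4 marked monocyte or dendritic-like cells and some lymphocytes. It binds non-muscle myosin (Myh9) and is often used as a fibroblast marker under the name FSP1. At P10 it was at 386 CPM (371 to 401) in 365 monocyte or dendritic-like cells, 76.2% of which had a UMI, and at 243 CPM (222 to 265) in T or NK-like cells, of which 17.8% had one, against 4.70 CPM in AT2-like cells. Neutrophil-like cells held 5.80 CPM and the Chil3 and Marco macrophages 6.64 CPM, intervals that overlap with the AT2-like level.

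Fibroblast-like cells had 19.7 CPM of S100a4 (15.4 to 24.8) at P10 and 22.1 CPM (17.7 to 27.3) at E18.5, against 4.70 and 4.25 CPM in AT2-like cells. At E18.5 the macrophage-like cells had 85.5 CPM (78.0 to 93.6) and a small B-like cluster of 35 cells 493 CPM (415 to 582, on 140 UMIs). The macrophage-like clusters in that sum ran between 11.3 CPM (led by C1qa) and 184 CPM (dividing). The macrophage-like cluster of 706 cells that carried alveolar RNA was left out of the sum. It had 214 CPM, with a UMI in 56.5% of its cells, and the neutrophil-like cluster had 168 CPM. No cluster of E18.5 was named monocyte or dendritic-like. Ccr2, the chemokine receptor of monocytes, was the gene most like S100a4 over the profiles (r 0.921).

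**Figure D4:**
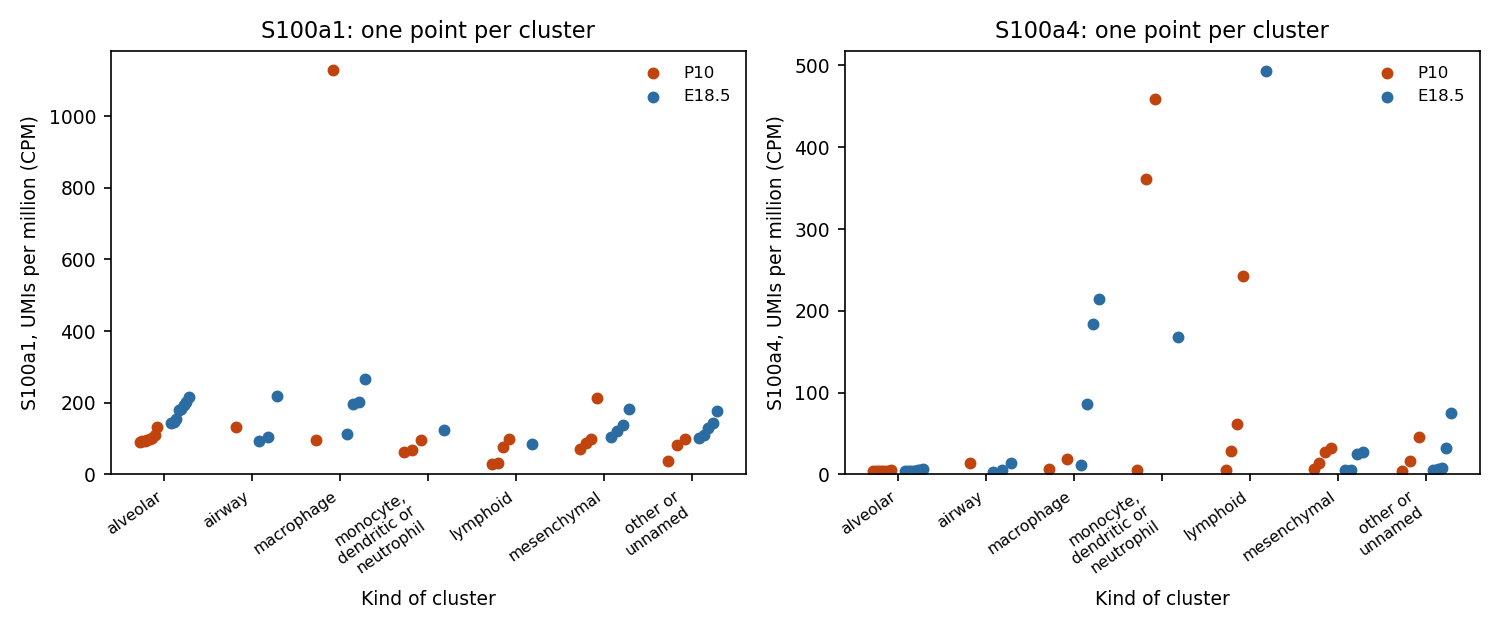
Level of S100a1 (left) and S100a4 (right) in CPM with 1 point per cluster, P10 in orange beside E18.5 in blue, grouped by kind of cluster. A single P10 macrophage-like cluster stood at 1128 CPM of S100a1, while S100a4 was highest in both monocyte or dendritic-like clusters of P10 and in the B-like cluster of E18.5 (493 CPM).

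The broad members were also part of the myeloid pattern. In neutrophil-like cells of P10 S100a6 reached 1561 CPM (1496 to 1629) and S100a11 2386 CPM (2305 to 2469), 35.1-fold and 9.49-fold above AT2-like cells, while S100a10 was at 68.9 CPM (55.7 to 84.2), below the 90.8 CPM of AT2-like cells. S100a10 was instead high in macrophage-like cells, with 359 CPM (330 to 389) at P10 and 1060 CPM (1034 to 1088) at E18.5. T or NK-like cells of P10 stood above them, at 461 CPM (432 to 491). The C1qa-led macrophage-like cluster of E18.5 had 194 CPM, below AT2-like cells (238 CPM). That of P10, which carried alveolar RNA and was left out of the sum, had 139 CPM. Summed over all myeloid-like cells, 7 of 9 members were higher than in AT2-like cells at P10 (all but S100a14 and S100g), where 17.2% of tested genes were, and S100g was lower, where 2.44% were. At E18.5, where the class held macrophage-like cells alone, 5 were higher (S100a4, S100a6, S100a8, S100a10 and S100a11, against 17.3%), and S100g was lower (8.64%). The myeloid sum of P10 rests on neutrophil-like cells for S100a8, which held 26978 of its 29507 UMIs. S100a11 was at 477 CPM in monocyte or dendritic-like and 426 CPM in macrophage-like cells, against 251 CPM in AT2-like cells. Neither of these classes was 2-fold above AT2-like cells. The myeloid ratio of S100a11 passed 2-fold in 9 of 10 alternatives. The exception was the sum without the neutrophil-like cluster, with a log2 value of 0.89, so this call also rests on neutrophil-like cells. For S100a1 the sum rests on macrophage-like cells (1128 CPM). Monocyte or dendritic-like (89.5 CPM) and neutrophil-like cells (63.1 CPM) were below AT2-like cells (98.6 CPM).

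No member was confined to mesenchymal cells. Mesothelial-like cells, the lining of the lung surface, had the highest S100a6 and S100a10 within them in both libraries, and the highest S100a11 at P10 only. At P10 33 mesothelial-like cells had 1931 CPM of S100a6 (1824 to 2043), 868 CPM of S100a10 (796 to 944) and 864 CPM of S100a11 (793 to 940), against 44.5, 90.8 and 251 CPM in AT2-like cells. At E18.5 57 such cells had 1544, 941 and 858 CPM of the same genes, against 758, 238 and 527 CPM in AT2-like cells. Pericyte or smooth muscle-like cells of E18.5 had more S100a11, 958 CPM (919 to 998), and 1249 CPM of S100a6 (1204 to 1295). Among classes named in both libraries, mesothelial-like cells were the one in which S100a6 was not lower at P10 (1.25-fold higher, 1.15 to 1.36). Their S100a11 differed between the ages by less than its counting interval (1.01-fold, 0.897 to 1.13).

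Fibroblast-like cells had 279 CPM of S100a6 (262 to 296) at P10 and 1181 CPM (1147 to 1216) at E18.5, where there were 0.666 S100a6 UMIs per Ager UMI, against 0.609 in AT2-like and 0.421 in AT1-like cells. S100a10 was at 220 CPM (205 to 235) and 492 CPM (471 to 515) in fibroblast-like cells of P10 and E18.5. Summed over mesenchymal-like cells, 5 members were higher than in AT2-like cells at P10 (S100a4, S100a6, S100a8, S100a9 and S100a10, against 21.5% of tested genes) and 2 at E18.5 (S100a4 and S100a8, against 21.9%), with S100a10 next at 1.99-fold. S100g was lower at both ages (background 4.54% and 5.10%). The S100a8 of these classes came from few cells, since 5 cells held 70.3% and 70.8% of the S100a8 UMIs of the 2 fibroblast-like clusters of P10, and 49.0% in the larger one of E18.5.

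Set across age within AT2-like cells, 4 members were at least 2-fold lower at P10 than at E18.5, where 10.3% of tested genes were, and 2 were higher, where 15.4% were. S100a14 was 37.1-fold lower (33.1 to 41.7) and S100a6 17.0-fold lower (16.5 to 17.6). S100a10 was 2.62-fold lower (2.54 to 2.71) and S100a11 2.10-fold lower (2.05 to 2.14). The summed E18.5 level of S100a14 was within the range of the myeloid and mesenchymal classes of that library. These E18.5 sums include the antioxidant-led cluster. The other AT2-like clusters had 462 and 448 CPM of S100a6 and 71.9 and 73.2 CPM of S100a14. Their S100a11 was at 427 and 457 CPM. Over the alternatives the highest log2 ratios were -3.35 for S100a6 (-4.09 as reported), -4.61 for S100a14 (-5.21) and -0.82 for S100a11 (-1.07). The 2 higher members were S100a8 (3.13-fold) and S100a9 (3.85-fold), whose levels were low beside those of neutrophil-like cells (38.0 and 47.2 CPM in AT2-like against 19564 and 26281 CPM in neutrophil-like cells of P10). S100g was 1.19-fold (1.17 to 1.21) higher, S100a4 1.10-fold (0.901 to 1.36) higher and S100a1 1.64-fold (1.58 to 1.70) lower.

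The median log2 ratio of the 9 members was -0.71, against 0.20 over the 8383 genes tested. Short genes as a whole leaned the same way: the 11300 bases of S100a6, introns included, are the longest span of a member, and among genes no longer than that the median was -0.38 with 21.1% at least 2-fold lower and 7.05% higher. The part of gene length in the difference was not tested.

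The lower levels of P10 were not particular to AT2-like cells. S100a14 was 8.87-fold lower in airway-like, 51.6-fold lower in fibroblast-like and 66.4-fold lower in endothelial-like cells, and S100a6 3.51-fold lower in airway-like, 24.0-fold lower in macrophage-like and 8.11-fold lower in endothelial-like cells. The airway-like cells were not the same mixture, since the club markers summed to 186051 CPM and the ciliated markers to 1837 CPM at P10, and 68417 and 5302 CPM at E18.5. S100a6 was at 310 CPM in airway-like cells of P10 and 534 CPM in club-like cells of E18.5, closer than the fold over all airway-like cells. Ager was at 629 CPM over all cells of P10 and 3337 CPM over all cells of E18.5, so this AT1 transcript differed between the libraries in the same direction. The part of AT1 RNA outside AT1 cells in these differences was not tested. At E18.5 there were 6.85 S100a6 UMIs per S100a14 UMI in AT2-like cells, 7.51 in AT1-like, 6.92 in club-like and 7.11 in pericyte or smooth muscle-like cells, so in these classes both genes stood in nearly 1 ratio. Other classes of E18.5 had more S100a6 per S100a14. Ciliated-like cells held 8627 S100a6 and 416 S100a14 UMIs, and macrophage-like cells 10687 and 767. Mesothelial-like cells held 1157 and 80, fibroblast-like cells 4599 and 501, and endothelial-like cells 4792 and 564. S100a10 was 2.96-fold lower in macrophage-like, 2.08-fold lower in airway-like, 1.9-fold lower in pericyte or smooth muscle-like and 1.08-fold (0.968 to 1.22) lower in mesothelial-like cells, the last within its counting interval.

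**Figure D5:**
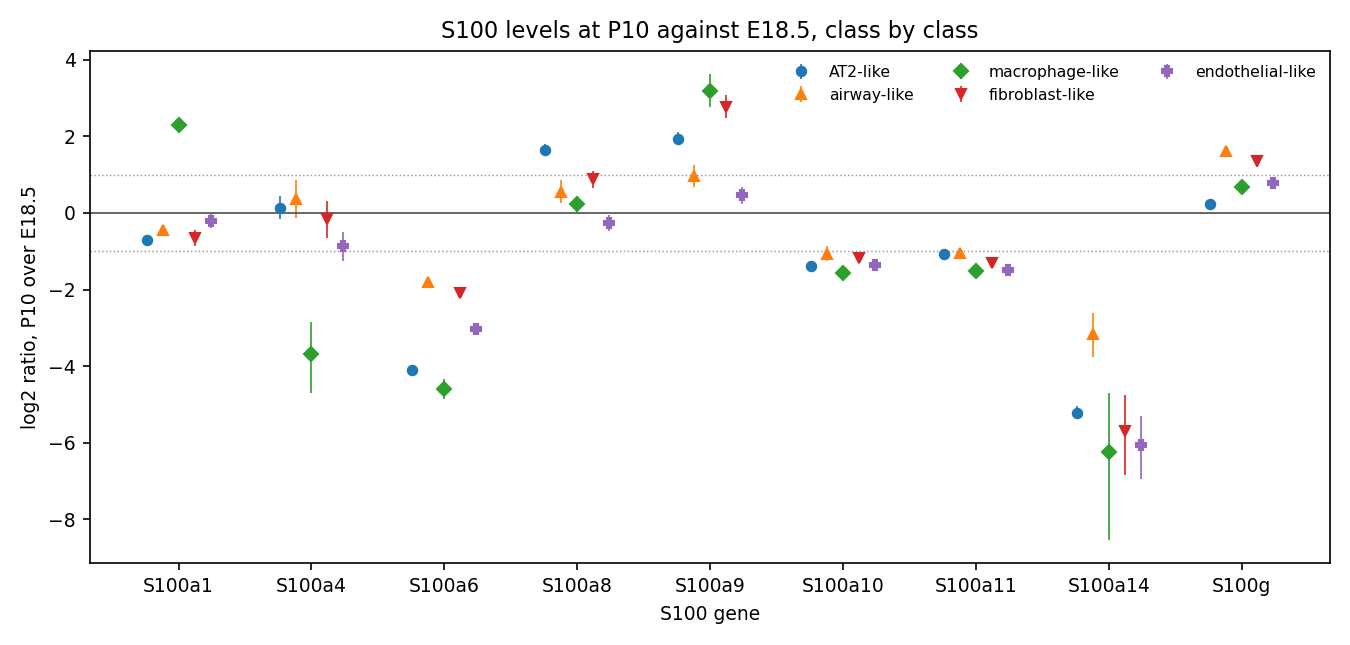
Log2 ratio of P10 over E18.5 for each member in 5 classes, with counting intervals; dotted lines mark 2-fold. S100a6, S100a10, S100a11 and S100a14 lay below 0 in all 5 classes, and S100a1 stood above 0 in macrophage-like cells alone (ratio 4.88).

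The known partners were taken as 4 lists, which are described by counts. Of the 6 receptors, Ager was the one higher in AT1-like than AT2-like cells of E18.5 (8746 against 1244 CPM), and Tlr4 (2.23 against 13.1 CPM) and Cd36 (29.5 against 515 CPM) were lower. These counts stand beside 17.3% of all tested genes higher and 9.63% lower. Of the 9 annexins, 8 were tested there and 3 were higher, Anxa2 (1224 against 530 CPM), Anxa3 (1532 against 478 CPM) and Anxa5 (311 against 144 CPM), none lower. Of 8 intracellular targets 3 were higher, Ahnak (1406 against 225 CPM), Capzb (272 against 102 CPM) and the S100a4 partner Myh9 (291 against 125 CPM), and Atp2a2 was lower (77.6 against 231 CPM). Anxa2, the partner of S100a10, thus had a 2.31-fold AT1 over AT2 ratio where S100a10 itself had 1.28 (1.23 to 1.33).

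Between the ages, AT2-like cells of P10 had less Anxa2 (204 against 530 CPM at E18.5) and less Anxa1 (178 against 405 CPM) and more Anxa6 (106 against 49.4 CPM), the 3 of 8 tested annexins past 2-fold, where 15.4% of all tested genes were higher and 10.3% lower. Of 6 receptors, Bsg was lower (456 against 1735 CPM) and Tlr4 higher (36.4 against 13.1 CPM), and none of the 8 intracellular targets passed 2-fold. Among 8 genes of calcium entry and export, 4 had enough counts and 3 were higher at P10 beside the same 15.4%: Trpv6, a calcium entry channel that works with calbindin-D9k in the gut (34.1 against 6.14 CPM), the vitamin D receptor Vdr (15.6 against 4.33 CPM) and the exchanger Slc8a1 (14.9 against 5.62 CPM). S100g itself differed 1.19-fold over the same cells.

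Over the 23 profiles the members fell into sets that moved together, given as a description since classes of 1 library are not independent. S100a8 and S100a9 had a Pearson r of 0.92 on log2(CPM + 10), S100a6 and S100a14 0.81, S100a6 and S100a11 0.80, and S100a6 and S100g -0.59. The genes most like S100a14 were Fxyd4, Phgr1 and Cdkn2b (r 0.982 to 0.985), those most like S100a9 Retnlg and Stfa2l1 (0.976 and 0.975) and those most like S100a8 Trem3, Clec4d and Mmp8 (0.948 to 0.957). For S100a6 these were Sra1, Plp2 and Ubb (0.849 to 0.866). For S100a10 they were Tubb5, Mapre1 and Ptbp1 (0.866 to 0.895), and for S100a11 Mir22hg, Pygl and Prdx5 (0.900 to 0.908).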

How the data were processed

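Sorted lung cells of 2 libraries were profiled in droplets, with reads taken at transcript 3′ ends. The authors deposited unnormalized UMI counts for each gene in each barcode, which per the file headers came from Cell Ranger 7.0.1, on mm10 per the submitters' processing notes, which also name Seurat 4.0.0. The use of strand and of intronic reads in counting is not stated there.

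Barcodes with 500 genes and 1000 UMIs or more were kept where no more than 20% of UMIs were mitochondrial, leaving out 417 barcodes at P10 and 712 at E18.5. The libraries held 171205348 UMIs at P10 and 137837590 at E18.5. Scrublet marked 1 cell at P10 and 2 at E18.5, so few that the caller is read as not having worked, and doublets remain. Each library was clustered without S100 genes (scanpy 1.11.5, 2000 variable genes, 30 principal components, 15 neighbours, Leiden resolution 1), giving 25 clusters at P10 and 26 at E18.5. A marker counted as raised in a cluster when seen in at least 25% of its cells and at least 3-fold above the 10th percentile over clusters, and a name needed at least 3 raised markers. This rule was set after the clusters were seen. Non-alveolar clusters carrying alveolar RNA were left out of sums. Ager was kept out of the AT1 markers and no S100 gene was a marker.

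Counts were summed per class and scaled to CPM. Shares and ratios have exact binomial intervals at 95%, and 3 counts were taken as the limit for a count of 0. The summing and the intervals were checked on simulated counts. The members, lists and markers were chosen with earlier results of these data known. Named genes were the members, 8 further S100 genes, the partner lists, class markers and the 3 genes most alike to each member among 7289 genes with at least 50 CPM in a profile. Retnlg and the clusters singled out were chosen after their values were seen. Positions are from GENCODE vM21 and upstream stretches from RefSeq, whose table had an entry for 7 of the 9 members.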

Additional observations from a re-analysis of the deposited data

How the results depend on the processing

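Of 97 counts of members recomputed under other settings, 85 stayed within 1.5 times the reported one and 12 did not. With no AT1-like cluster at P10, a value there came from resolution 0.5 (58 cells, 3 members higher than in AT2-like cells: S100a6, S100a11 and S100a14) and from naming each cell by its own marker UMIs (109 cells, 2 members: S100a6 and S100a14). Naming cell by cell gave 3 members higher in mesenchymal-like cells at P10, and at E18.5 it gave 5 in AT1-like, 1 in airway-like and 1 in mesenchymal-like cells, and it left 1 member higher at P10 in AT2-like cells. It also turned 3 airway over AT2 log2 ratios of E18.5, S100a4 to -0.48, S100a8 to -0.82 and S100a9 to -0.56. The airway count of E18.5, 4 as reported, was 1 with S100 genes among the variable genes, 1 without the cells of highest doublet score, 2 with a mean over cells and 2 with thinned cells, and S100a11 remained among the members counted in 4 of these 5 settings, cell by cell naming included. Resolution 0.5 gave 3 in myeloid-like cells of E18.5 (102 cells), where S100a10 turned to -0.12, and 4 in mesenchymal-like cells. Leaving out the antioxidant-led AT2-like cluster, an alternative chosen after seeing the data, also gave 4 there. The causes were not tested. Of 702 log2 ratios of single members, 372 stayed within their counting interval, 326 moved beyond it and 4 turned. S100a11 stayed at least 2-fold lower at P10 in AT2-like cells under 6 of 10 alternatives. No paired analysis was possible because each time point has 1 library. Depth limits S100a14 at P10 and S100a4 outside leukocytes, which rest on few UMIs.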

Other observations

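Of 8 further S100 genes, only S100a13 and S100a16 passed 10 CPM in AT2-like cells, and both were also higher in AT1-like cells of E18.5: S100a13 with 306 CPM against 141 CPM in AT2-like cells and S100a16 with 112 CPM against 47.0 CPM. S100a16 was highest in endothelial-like cells, at 203 CPM at P10 and 186 CPM at E18.5. S100a3 reached 15.6 CPM in ciliated-like cells of E18.5 and 0.553 CPM in airway-like cells of P10, and its span overlaps that of S100a2, so their reads may not be separable.

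An unnamed cluster of E18.5 with 421 cells, led by Ear2, Tlr2 and Mpeg1 and with a median of 25800 UMIs, resembled the macrophage-like cells in its calprotectin genes. In it 250 cells (59.4%) had S100a8 UMIs alone and 82 had both, with 7.02 S100a8 UMIs per S100a9 UMI (5.95 to 8.34).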
